A study of Mus musculus with 36 samples.

Results

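Enzymes that activate, oxidise or release fatty acyl-CoA and the peroxins that build peroxisomes were followed through mouse liver on 36 expression arrays. The set was drawn by symbol. It holds the acyl-CoA dehydrogenases (Acad), thioesterases (Acot), oxidases (Acox), long-chain and medium-chain synthetases (Acsl, Acsm), hydroxyacyl-CoA enzymes (Hadh) and peroxins (Pex), without Acadl and Acot3. A gene entered if a row of the array named it alone and held values, and 47 of the 19664 genes measured in this way did so. They are 3 long-chain synthetases, 5 medium-chain synthetases, 9 dehydrogenases, 2 hydroxyacyl-CoA enzymes, 2 oxidases, 12 thioesterases and 14 peroxins. Acsl3 shared its row with Utp14b and was left out.

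A fatty acid enters metabolism as an acyl-CoA, made by a synthetase of the Acsl or Acsm kind. Mitochondria shorten it by cycles that begin with an acyl-CoA dehydrogenase and include a hydroxyacyl-CoA dehydrogenase, and peroxisomes begin the same cycle with an acyl-CoA oxidase and take the very long, branched and bile acid side chains. Thioesterases return the free acid and CoA, while peroxins import enzymes into the peroxisome, insert its membrane proteins and drive its growth and division. In liver many of these genes are known targets of the fatty acid receptor PPARalpha.

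The mice either carried a liver-specific knockout of Cyp51, the sterol 14-demethylase of cholesterol synthesis (LKO), or were control littermates (LWT), on a mixed 129/Pas and C57BL/6J background. Neither the driver of the deletion nor the alleles that the LWT mice carry could be read from the labels. Females and males of both genotypes received 1 of 3 diets from 3 weeks of age for 16 weeks, and livers were taken at 19 weeks after a 5 h fast. LFnC was a low-fat chow without added cholesterol, HFnC was rich in fat without added cholesterol, and HFC was rich in fat and held 1.25% cholesterol by weight. The chow and the high-fat diets came from different suppliers, so LFnC and HFnC differ in more than fat. Each of the 12 groups held 3 mice, 1 from each of 3 labelled batches, out of 136 mice fed in all.

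Values are log2 intensities, and the number of arrays sets their precision. Array medians lay between 7.45 and 7.59. Cyp51 was lower in LKO on each diet, by 1.21 (SE 0.22) on the log2 scale on LFnC and with changes of -1.64 on HFnC and -1.57 on HFC, and no LKO array of a diet reached an LWT array of that diet. Albumin transcript (Alb) was not called between genotypes on LFnC, at 0.01 on the log2 scale, but it is 1 of 9 hepatocyte markers measured. Relative to the mean of all arrays, their level on LFnC ran from -0.11 to -0.05 in LKO females and 0.04 to 0.05 in LWT females. In males it ran from -0.07 to 0.01 in LKO and from -0.01 to 0.08 in LWT. In the whole tissue, fewer cells of a type and less RNA per cell cannot be told apart. Replicates 1 and 2 of the HFC LWT males stood apart by their cholangiocyte marker levels, 1.10 and 0.31 above the mean of all arrays against -0.59 in replicate 3, and by macrophage marker levels of 0.92 and 0.63 against -0.33. HFnC LKO female replicate 1 stood apart in the same way (cholangiocyte 1.66, macrophage 0.91). HFnC LWT male replicate 2 stood apart by a low level of the PPARalpha list (-0.57). Its mean level was also low for the genes followed here (-0.15) and for further peroxisomal genes (-0.37). Many of the genes followed are PPARalpha targets, so the choice of this array was not independent of them. Counts without it are therefore no separate test. Counts of calls that these 4 arrays move by over 1.5 times are also given without them. Leaving out replicates 1 and 2 of the HFC LWT males keeps 1 mouse in that group. A call lost there can reflect fewer arrays or a smaller change, and these were not told apart. Pancreatic acinar marker levels split the arrays further: 12 of the 36 lay between 1.22 and 4.48 and the other 24 between -1.71 and 0.35. Those 12 held 6 of the 9 LWT females, 1 of the 9 LWT males, 3 of the 9 LKO females and 2 of the 9 LKO males, and their part in the results was not tested.

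Promoters are shown for the 3 genes with the largest decreases in LKO on LFnC and for the gene with the closest match to a PPARalpha site, because sites of the PPARalpha kind were searched for. The bases are the 250 before the annotated start, from RefSeq on GRCm38.p6, and 41 of the 47 genes had an entry. The motif searched was the repeat that PPARalpha is known to bind, a copy of AGGTCA followed after 1 base of any kind by another in the same direction. Capitals mark a match to it, read on the opposite strand.
Acot4 (chr12:84038129-84038378, plus strand): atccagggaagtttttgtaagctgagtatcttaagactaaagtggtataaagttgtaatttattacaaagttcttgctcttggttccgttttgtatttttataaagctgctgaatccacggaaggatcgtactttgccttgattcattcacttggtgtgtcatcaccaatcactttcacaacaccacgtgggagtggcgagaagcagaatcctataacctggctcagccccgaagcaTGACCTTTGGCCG
Acot12 (chr13:91741271-91741520, plus strand): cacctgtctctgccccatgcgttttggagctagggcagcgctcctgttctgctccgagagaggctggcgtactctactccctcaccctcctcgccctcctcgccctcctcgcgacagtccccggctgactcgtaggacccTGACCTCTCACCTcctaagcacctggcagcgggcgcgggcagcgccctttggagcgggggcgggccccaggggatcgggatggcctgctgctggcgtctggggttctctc
Acot1 (chr12:84009252-84009501, plus strand): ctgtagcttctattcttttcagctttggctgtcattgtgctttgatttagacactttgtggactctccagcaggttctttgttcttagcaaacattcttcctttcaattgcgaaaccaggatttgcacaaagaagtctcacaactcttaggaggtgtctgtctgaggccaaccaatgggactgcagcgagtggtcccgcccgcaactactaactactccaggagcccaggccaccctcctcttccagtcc
Pex11a (chr7:79743132-79743381, minus strand): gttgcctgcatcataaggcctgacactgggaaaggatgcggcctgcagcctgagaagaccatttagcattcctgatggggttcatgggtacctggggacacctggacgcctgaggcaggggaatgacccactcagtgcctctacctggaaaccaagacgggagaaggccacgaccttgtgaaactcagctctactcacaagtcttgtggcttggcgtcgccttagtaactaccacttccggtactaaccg

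Both strands were searched in windows of 300 bases, from 250 before to 50 after the start. The exact repeat lay in 0 of the 50 promoters of these genes and in 0.0396% of all 32851 promoters. With up to 2 mismatches it lay in 3 of the 50 (6%), those of Acot12, Acot4 and Acox2, against 3.86% of all promoters. The Acot12 match had 1 mismatch and began 110 bases before the start, and the Acot4 match had 2 and began 13 bases before it. The single element AGGTCA, which every exact repeat contains, lay in 18% of these promoters and in 16.3% of all. CCAAT was found in 44% against 37.4%, and GGGCGG in 54% against 35.7%. The CG pair had a median count of 13 per promoter against 7 over all promoters, and its part in these shares was not tested. These are letters in a window and say nothing of a factor's binding.

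Over the 12 groups these genes varied more than the array as a whole, but they were also brighter. Their mean levels had a median of 10.19 against 7.81 over all genes, and 20 of the 47 lay in the top 10% of genes. Comparisons with all genes, here and below, are not matched for level. Acot5 (4.53) and Acsm2 (5.91) were the dimmest, and Acsm4 (6.40), Acot10 (6.58), Acsl6 (6.63) and Pex5l (6.80) were also dim. The range of a gene's 12 group means had a median of 0.564 on the log2 scale against 0.321 over all genes, and it reached 1 in 5 of the 47 (10.6%) against 6.58% of all genes. Thioesterases held 4 of those 5 places. Acot1 to Acot6, Acot9 with Acot10, and Acsm1 to Acsm5 are families of close copies, mostly neighbours in the genome, and their probes may read one another, so values within these families are uncertain.

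Levels in the groups are given in the order female LWT, female LKO, male LWT, male LKO, with the pooled SD within groups (n = 3 each). Acot4, a peroxisomal thioesterase, averaged 11.78, 10.32, 10.49 and 9.38 on LFnC, 11.55, 10.90, 10.46 and 10.08 on HFnC and 11.72, 11.65, 9.92 and 9.79 on HFC (SD 0.50). Acot1, the cytosolic long-chain thioesterase, averaged 9.02, 7.39, 8.24 and 7.34 on LFnC, 8.67, 7.93, 8.35 and 7.69 on HFnC and 9.57, 9.55, 8.34 and 8.23 on HFC (SD 0.61). Acot2, its mitochondrial counterpart, averaged 11.55, 11.40, 10.75 and 10.65 on LFnC, 11.37, 11.29, 10.66 and 10.83 on HFnC and 11.94, 11.52, 11.34 and 10.68 on HFC (SD 0.42). In each sex Acot4 and Acot1 had their lowest mean in LKO livers on LFnC, whereas the Acot2 means on LFnC were higher in both female groups. Acot11, a long-chain thioesterase with a lipid-binding domain, averaged 7.85, 7.80, 7.57 and 7.88 on LFnC, 8.06, 8.01, 8.25 and 8.18 on HFnC and 8.27, 8.43, 8.27 and 8.89 on HFC (SD 0.32). Its mean on LFnC lay below that on HFC in each sex and genotype. Acot6, another peroxisomal thioesterase, averaged 7.76, 7.74, 7.28 and 7.50 on LFnC, 7.41, 7.45, 7.00 and 7.26 on HFnC and 7.83, 7.63, 7.32 and 7.31 on HFC (SD 0.18). The mitochondrial thioesterase Acot9 averaged 8.37, 9.23, 8.33 and 8.87 on LFnC, 8.39, 8.82, 8.28 and 8.58 on HFnC and 8.71, 8.54, 8.99 and 8.37 on HFC (SD 0.31). Its near copy Acot10 averaged 6.53, 7.06, 6.33 and 6.66 on LFnC, 6.50, 6.65, 6.33 and 6.59 on HFnC and 6.64, 6.38, 6.73 and 6.52 on HFC (SD 0.18). For both, LKO means lay above LWT means on LFnC and HFnC and below them on HFC.

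Pex11a, a peroxin of peroxisome growth and division, averaged 11.69, 10.84, 11.23 and 10.77 on LFnC, 11.60, 11.26, 11.54 and 11.45 on HFnC and 11.88, 11.73, 11.66 and 11.70 on HFC (SD 0.36). Its relative Pex11g averaged 9.62, 9.04, 9.68 and 9.33 on LFnC, 9.47, 9.27, 9.72 and 9.60 on HFnC and 9.51, 9.52, 9.39 and 9.93 on HFC (SD 0.19). In each sex both had their lowest mean in LKO livers on LFnC. Acsl4, the synthetase that prefers arachidonic acid, averaged 10.93, 11.26, 11.08 and 11.75 on LFnC, 11.37, 11.50, 11.79 and 11.82 on HFnC and 10.96, 10.93, 11.64 and 11.09 on HFC (SD 0.27). Acsl5, a long-chain synthetase of mitochondria and endoplasmic reticulum, averaged 12.42, 12.00, 12.18 and 12.47 on LFnC, 12.69, 12.27, 12.29 and 12.41 on HFnC and 12.25, 12.19, 12.00 and 11.94 on HFC (SD 0.23). Acsl5 was not called in any comparison. Acadsb, the dehydrogenase of short branched chains from isoleucine, averaged 10.90, 10.34, 11.14 and 10.92 on LFnC, 10.88, 10.48, 11.00 and 10.83 on HFnC and 10.68, 10.88, 10.86 and 11.33 on HFC (SD 0.22). Acsm3, a medium-chain synthetase of the mitochondrial matrix, averaged 11.11, 10.60, 11.21 and 10.98 on LFnC, 11.29, 10.90, 11.29 and 11.02 on HFnC and 11.13, 11.42, 11.08 and 11.52 on HFC (SD 0.24). The related Acsm1 averaged 11.42, 10.97, 11.57 and 11.44 on LFnC, 11.50, 11.12, 11.60 and 11.53 on HFnC and 11.45, 11.61, 11.23 and 11.73 on HFC (SD 0.22). Acadsb, Acsm3 and Acsm1 had their lowest mean in LKO females on LFnC and their highest in LKO males on HFC. So did Pex11g, Pex16, Acads, Pex14, Acad8, Pex3 and Pex5.

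**Figure D1:**
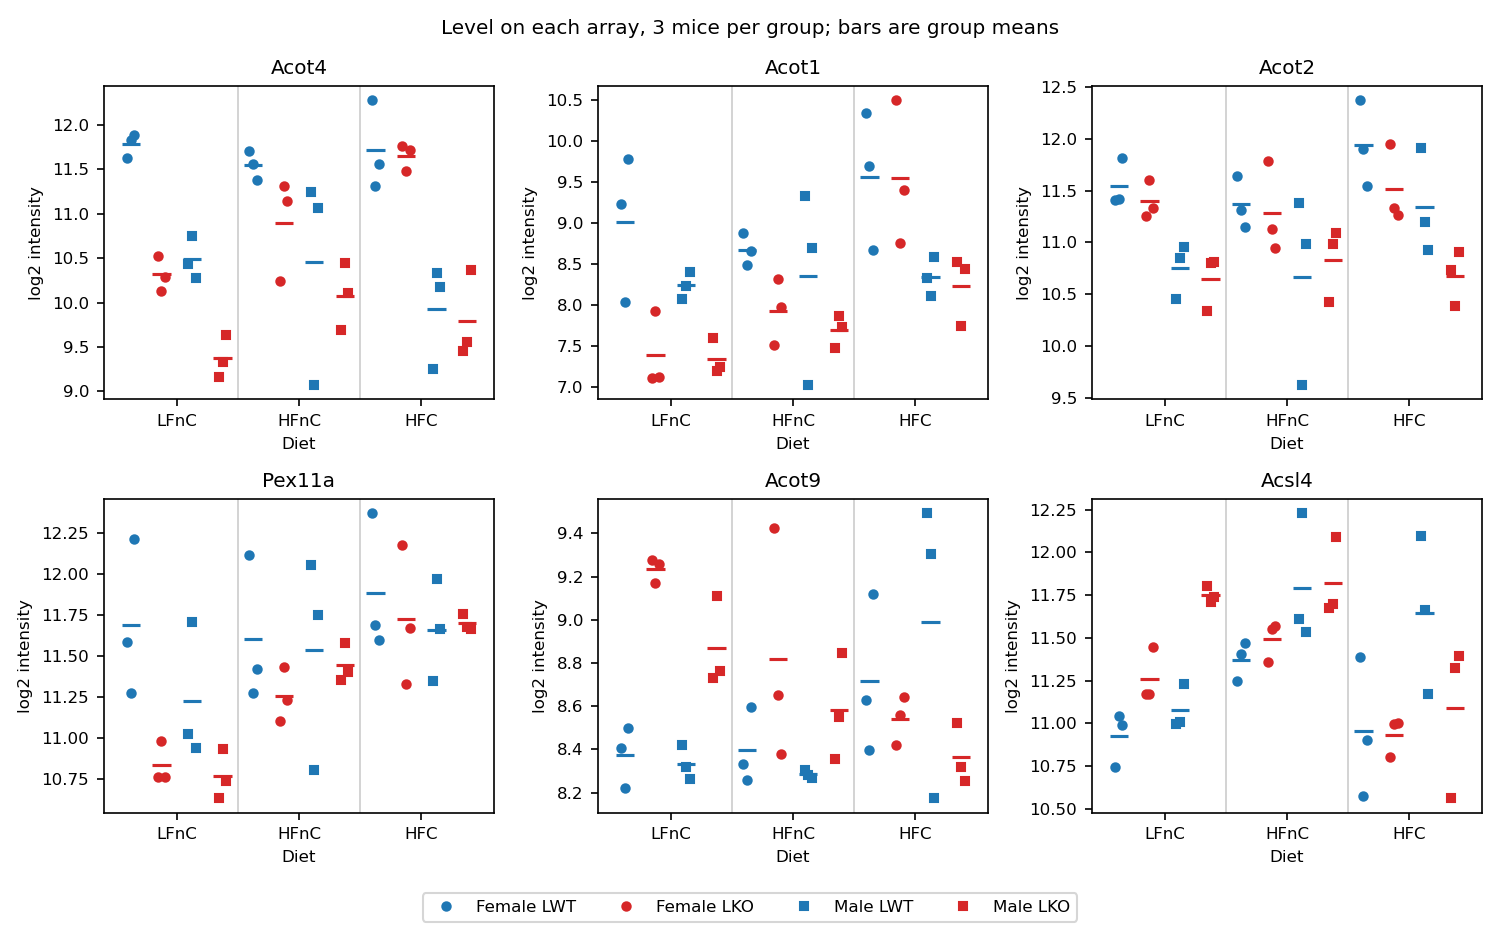
Log2 intensity (vertical axis) of Acot4, Acot1, Acot2, Pex11a, Acot9 and Acsl4 on each of the 36 arrays, by diet, sex and genotype; bars are the means of 3 mice. On LFnC the LKO points of Acot1 lie below all LWT points and those of Acot9 above them, and HFnC LWT male replicate 2 is the low Acot4 point at 9.07.

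The first question was what loss of Cyp51 did to these genes on the low-fat diet. Most of them were lower in LKO livers. A gene is called here where limma's Benjamini-Hochberg adjusted p over all 19664 genes was under 0.05. Of the 47, 26 (55.3%) fell and 4 rose between the 6 LWT and 6 LKO mice, where 19.3% of all genes fell, 14.2% rose and 33.4% were called either way. Their median change was -0.22 against -0.07 over all genes. Leaving out 1 array at a time gave 25 to 30 calls. The median was below that of all genes within each batch (-0.16, -0.24 and -0.29 against -0.04, -0.08 and -0.05), and all 30 called changes had the same sign in the 3 batches. The batches hold the same arrays that gave the calls, so the shared sign is no separate support. Its share among all called genes was not counted. When each array was centred on its median, 30 fell and 4 rose, and over all genes 2226 of 9982 calls were then increases, against 2787 of 6575 without centring.

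Of the peroxins 12 of 14 fell on LFnC, none rose, and the median was -0.29. Pex6, the ATPase that pulls the import receptor back out of the membrane, ran from 9.74 to 9.94 (median 9.84) in LWT and from 9.20 to 9.54 (median 9.39) in LKO. It changed by -0.45 (SE 0.07, limma adjusted p = 5.09e-05), and no LKO liver reached the lowest LWT liver. Pex26 anchors that ATPase to the membrane and ran from 8.48 to 8.84 in LWT and from 8.06 to 8.31 in LKO, a change of -0.47 (SE 0.12, limma adjusted p = 0.00401) again without overlap. Pex11a ran from 10.94 to 12.21 (median 11.43) in LWT and from 10.63 to 10.98 (median 10.76) in LKO, and changed by -0.65 (SE 0.20, limma adjusted p = 0.0135). Its groups overlapped, and without LFnC LWT male replicate 2 the change was -0.53 (adjusted p = 0.052). Pex11g changed by -0.47 (SE 0.10, limma adjusted p = 0.00181), with LWT between 9.44 and 9.76 and LKO between 8.96 and 9.45.

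The docking proteins of the import channel fell too, Pex14 by 0.37 and Pex13 by 0.31 on the log2 scale, each without overlap of the genotypes. Of the membrane assembly factors, Pex16 fell by 0.40, Pex3 by 0.23 and Pex19 by 0.21, and the last 2 were not called in 8 and 9 of the 12 fits that left out 1 array. Pex7, the receptor for the amino-terminal import signal, fell by 0.27. Pex10, of the ubiquitin ligase that recycles the receptor, fell by 0.26. Pex5l, a Pex5 relative known from neurons, fell by 0.22 and was not called in 6 of those 12 fits. The main import receptor Pex5 (-0.13) and the ligase subunit Pex2 (-0.15) were not called.

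Of the dehydrogenases 6 of 9 fell (median -0.24) and none rose. Acadvl, for very long chains, ran from 10.83 to 10.99 in LWT and from 10.34 to 10.68 in LKO, and Acad11, which acts on long and very long chains, from 12.55 to 12.74 and from 12.06 to 12.40. Neither overlapped between genotypes, and the changes were -0.41 and -0.39. Acadsb fell by 0.39, the valine pathway enzyme Acad8 by 0.32, and the short-chain and medium-chain enzymes Acads and Acadm by 0.24 and 0.18. Hadha, of the trifunctional protein, and Hadh, the short-chain hydroxyacyl-CoA dehydrogenase, fell by 0.27 and 0.22 without overlap. Of the medium-chain synthetases Acsm3 alone was called (-0.38), and Acsm1 at -0.29 was not. Acadm was lost in 8 and Acsm3 in 7 of the 12 fits that left out 1 array.

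Thioesterases changed in both directions, 4 lower and 2 higher of 12 (median -0.06), and they held the largest changes. Acot4 read 11.63, 11.83 and 11.89 in LWT females against 10.53, 10.13 and 10.29 in LKO females, and 10.44, 10.75 and 10.28 in LWT males against 9.16, 9.34 and 9.63 in LKO males. Each LKO value lay below every LWT value of its sex. The change over both sexes was -1.29 (SE 0.27, limma adjusted p = 0.000904). Acot1 read 9.23, 8.03 and 9.79 in LWT females, 8.07, 8.23 and 8.40 in LWT males, 7.11, 7.93 and 7.12 in LKO females, and 7.59, 7.19 and 7.24 in LKO males. It did not overlap between genotypes and changed by -1.26 (SE 0.33, limma adjusted p = 0.00559). Acot8, a peroxisomal thioesterase, and Acot12, the cytosolic acetyl-CoA thioesterase, fell by 0.38 and 0.35. Acot2 was not called (-0.13), nor was Acot11 (0.13).

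Only 4 of the 47 rose on LFnC. Acot9 read between 8.22 and 8.50 in LWT and between 8.73 and 9.28 in LKO, without overlap, and rose by 0.70 (SE 0.17, limma adjusted p = 0.00308). Its near copy Acot10 rose by 0.43 (SE 0.10, limma adjusted p = 0.00235). Acsl4 ran from 10.75 to 11.23 in LWT and from 11.17 to 11.80 in LKO and rose by 0.50 (SE 0.15, limma adjusted p = 0.0130), while Acsl6, a long-chain synthetase known from brain, fell by 0.25. Acox3, the pristanoyl-CoA oxidase, rose by 0.28 (SE 0.05, limma adjusted p = 0.000228), and Acox2, the oxidase of bile acid intermediates, was not called (-0.06). In all, 10 of the 47 had every LKO liver below every LWT liver, where 4.32% of all genes did, and 1, Acot9, had every LKO liver above, where 6.24% did.

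**Figure D2:**
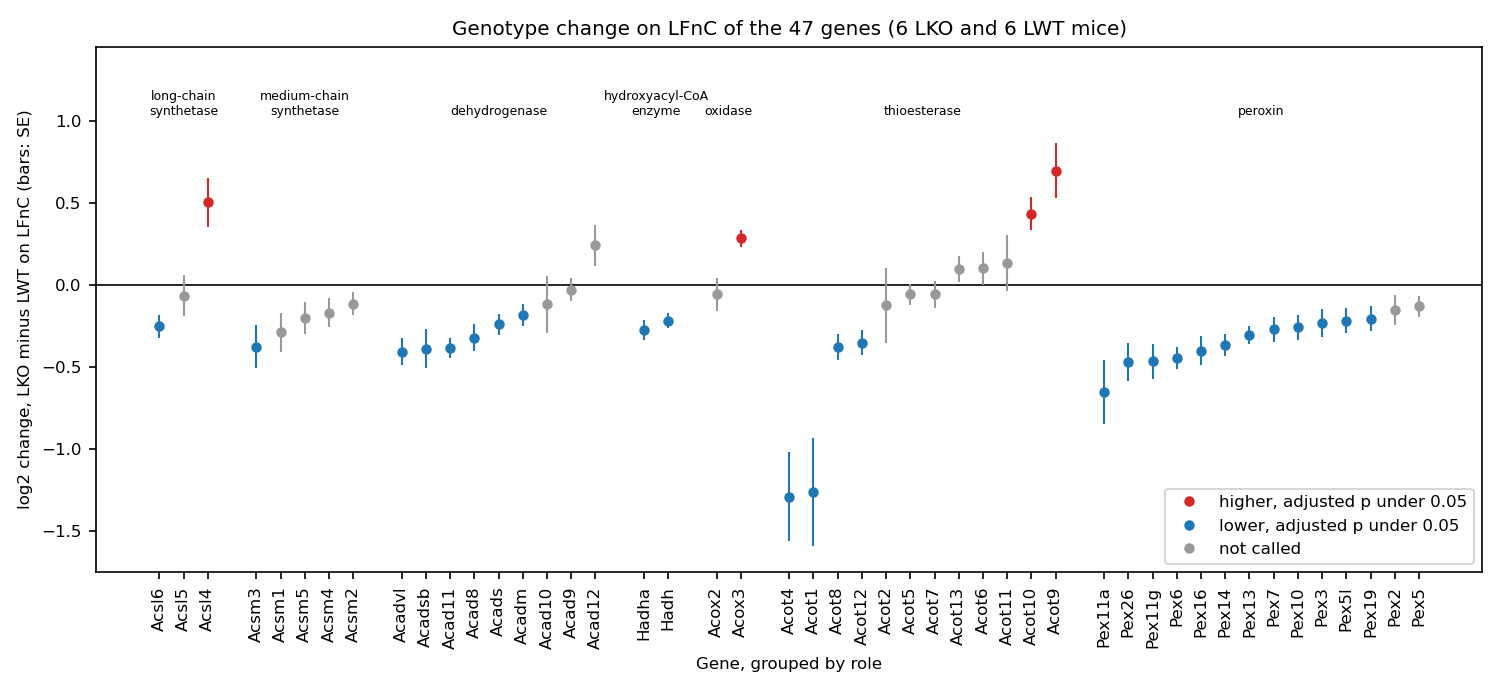
Log2 change, LKO minus LWT on LFnC (vertical axis, bars are SE), of the 47 genes grouped by role; red is higher and blue lower at a limma adjusted p under 0.05, grey is not called. The peroxins all lie below 0, and Acot4 (-1.29) and Acot9 (0.70) are the extremes.

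Other genes of these pathways were counted from lists drawn up with earlier results known. Of 12 genes of mitochondrial oxidation and the carnitine shuttle 11 fell and none rose (median -0.36): the carnitine transferases Cpt1a and Cpt2 changed by -0.29 and -0.46 and the carnitine carrier Slc25a20 by -0.51. Of 22 further peroxisomal genes 12 fell and 3 rose. The thiolases Acaa1b and Acaa1a changed by -0.73 and -0.54, the isomerase Eci2 by -0.76 and the transporter Abcd2 by -1.08. The 3 that rose were Far1 (0.71) and Agps (0.56), enzymes of ether lipid synthesis, and the sterol carrier Scp2 (0.23). After centring, 15 fell and 2 rose. Of 14 genes for PPARalpha and its further targets 8 fell and 1, the fatty acid translocase Cd36, rose by 0.58. Ppara itself changed by -0.61 (SE 0.12, limma adjusted p = 6e-04) and Angptl4, a lipase inhibitor, by -1.36.

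Markers of other cell types moved with the same comparison. All 6 cholangiocyte markers rose (median 1.66, Epcam 2.24, Sox9 1.20, Krt19 1.08), with a mean level between 0.96 and 1.72 in LKO and between -0.60 and -0.20 in LWT. Of the macrophage markers 6 of 9 rose and 1 fell (median 1.32), of the stellate cell and matrix markers 7 of 9 rose (1.07), and of the T, B and NK cell markers 2 of 8 rose. Of 9 hepatocyte markers 2 fell and the median was -0.08, with a mean level of -0.11 to 0.01 in LKO and -0.01 to 0.08 in LWT. The mean level of the 47 genes ran from -0.24 to -0.11 in LKO and from -0.06 to 0.19 in LWT. Of 6 pancreatic acinar markers limma called 0 (median -0.55, 0 with an unadjusted p under 0.05), while their level ran from -1.41 to 3.19 within the LWT females and from -1.57 to 2.39 within the LKO males, and of 4 adipocyte markers 1 fell. The part of these cell types in the results was not tested.

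**Figure D3:**
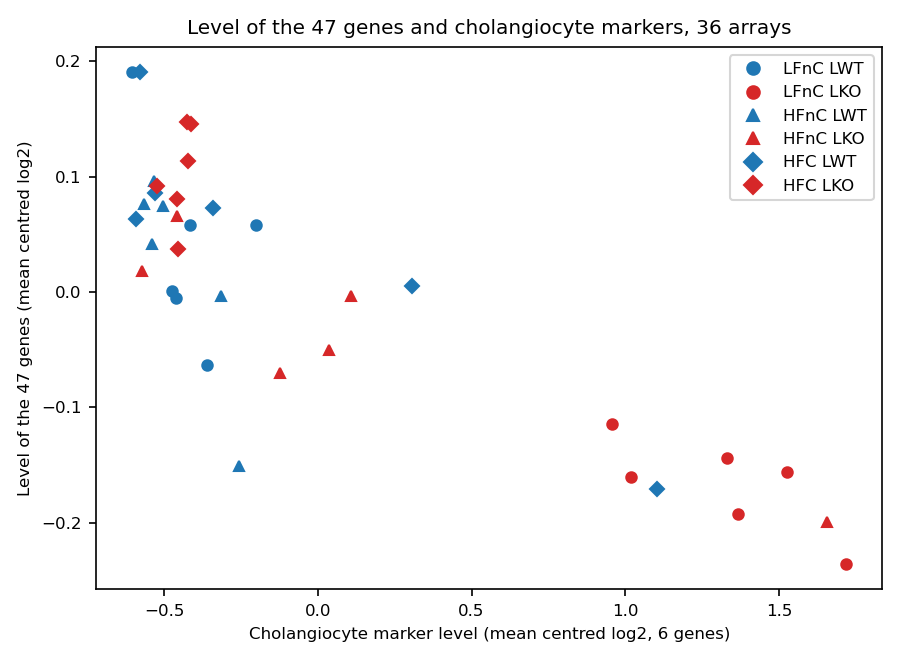
Mean centred log2 level of the 47 genes (vertical axis) against the mean centred log2 level of the 6 cholangiocyte markers (horizontal axis) on the 36 arrays, by diet and genotype. LKO livers on LFnC lie at marker levels of 0.96 to 1.72 and gene levels of -0.24 to -0.11, and HFC LKO livers at gene levels of 0.04 to 0.15.

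On the high-fat diet without cholesterol no genotype difference passed the test. By limma 0 of the 47 were called, where 0.0203% of all genes were, and 7 had an unadjusted p under 0.05. The smallest adjusted p was 0.315, for Acsm3 (-0.33, SE 0.13) and Acox3 (0.13, SE 0.05). Acot1 had the largest difference, -0.70 (SE 0.33), and Acot9 the highest, 0.36 (SE 0.17). Of the 26 genes that fell on LFnC, 23 (88.5%) lay below 0 on HFnC, which was so for 60.4% of all genes that fell on LFnC. Peroxins had a median of -0.12, with 13 of 14 below 0. The count was 0 as well without the 4 arrays that stood apart. Pex6 ran from 9.61 to 9.91 in LKO and from 9.80 to 10.09 in LWT. The genotypes overlapped for each of the 47, whereas 0.636% of all genes had every LKO array above every LWT array and 0.158% had it below.

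With cholesterol added, none passed either. Most peroxin differences lay on the other side of 0, as did those of 82.9% of all genes that fell on LFnC. By limma 0 of the 47 were called on HFC, where 1% of all genes were, and 12 had an unadjusted p under 0.05. The count was 8, with 7 higher in LKO, once HFC LWT male replicate 3 was left out, and 0 without replicates 1 and 2 of that group. In the fit without HFC LWT male replicate 3, 1933 of all genes were called. Of the 14 peroxins 13 lay above 0 (median 0.12), as did all 5 medium-chain synthetases (median 0.20). The smallest adjusted p was 0.15, for Acsm2 (0.20, SE 0.07), a dim gene with a mean level of 5.91. Acot9 (-0.40, SE 0.17) and Acot2 (-0.54, SE 0.23) were the lowest. Of the 26 genes that fell on LFnC 80.8% lay above 0 on HFC, near the 82.9% for all genes that fell there. Acot4 read 11.76, 11.48 and 11.71 in LKO females against 12.28, 11.31 and 11.56 in LWT females, with a change over both sexes of -0.10 (SE 0.27), and the genotypes overlapped. So did they for each of the 47, where 0.122% of all genes lay wholly above in LKO and 0.829% wholly below.

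**Figure D4:**
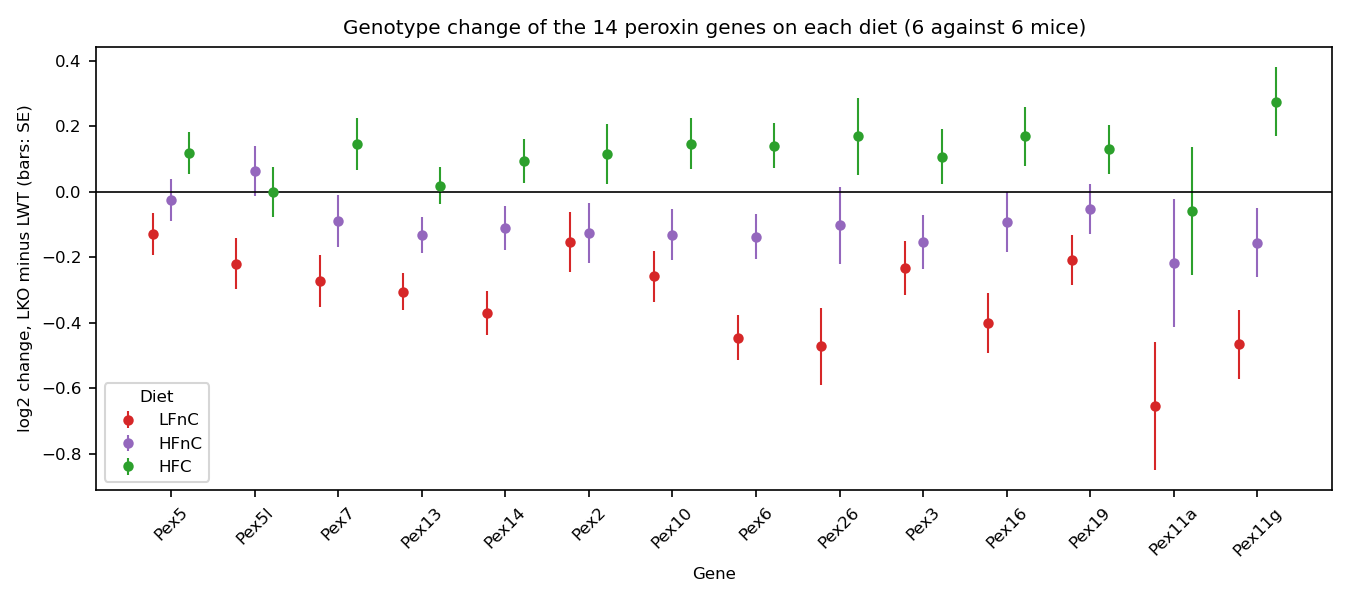
Log2 change, LKO minus LWT (vertical axis, bars are SE), of the 14 peroxins on LFnC, HFnC and HFC, with 6 mice per genotype and diet. On LFnC all 14 lie below 0, on HFnC 13 of 14, and on HFC 13 of 14 lie above 0.

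Whether the genotype change differed between HFC and LFnC was tested directly, in a comparison added after seeing the data. For 26 of the 47 the change was higher on HFC and for 4 lower, where 16.7% and 14.6% of all genes were called, and the median difference was 0.30 against 0.09 over all genes. By batch the median was 0.37, 0.23 and 0.33. Of the peroxins 11 of 14 were higher (median 0.41), led by Pex11g at 0.74 (SE 0.15, limma adjusted p = 0.000561). Acsm3 (0.74, SE 0.19) and Acadsb (0.72, SE 0.17) followed with limma adjusted p of 0.00408 and 0.00252. Acot4 differed by 1.19 (SE 0.38, limma adjusted p = 0.0195). Acot1 at 1.20 (SE 0.46, limma adjusted p = 0.0490) had a negative value in batch 2 (-0.08, against 1.47 and 2.21) and lost its call in 16 of 24 fits that left out 1 array. The change was lower on HFC for Acot9 (-1.10, SE 0.24, limma adjusted p = 0.00114), Acsl4 (-0.79, SE 0.21, limma adjusted p = 0.00653), Acot10 (-0.66, SE 0.14, limma adjusted p = 0.00102) and Acox3 (-0.30, SE 0.07, limma adjusted p = 0.00347).

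Both HFC LWT male arrays that stood apart entered this difference. Without replicates 1 and 2 of that group 16 of the 30 calls remained, 13 higher and 3 lower. The peroxins Pex3, Pex5, Pex7, Pex10, Pex19 and Pex26 were no longer called, nor were Acads, Acsl6, Acsm1, Acsm2 and Hadha. In the same fit Acot4 was 1.07 (adjusted p = 0.09), Acot1 1.08 (adjusted p = 0.18), Acsl4 -0.55 (adjusted p = 0.089) and Acot9 -0.69 (adjusted p = 0.028). Without the 4 arrays that stood apart it was 17 higher and 3 lower. Of 24 fits that left out 1 array, Pex5 lost its call in 13, Hadha in 10 and Pex3 in 5. Centring each array moved the median of all genes from 0.09 to 0.21 and gave 33 higher and 3 lower, with 8402 of all 10645 calls higher, and Acox3 then missed the threshold (-0.18, adjusted p = 0.055). The pathway lists had 10 of 12 mitochondrial genes higher, 12 higher and 2 lower of 22 peroxisomal genes, and 5 higher and 1 lower of 14 PPARalpha genes. All 6 cholangiocyte and 8 of 9 macrophage markers were lower in the same comparison (medians -2.03 and -1.81), and of 9 hepatocyte markers 2 were higher. Their part in the result was not tested.

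Averaged over the 3 diets, with 18 mice per genotype, few of the changes were called. Of the 47, 5 fell and 1 rose, where 0.585% and 2.06% of all genes did. Acot4 fell by 0.63 (SE 0.16, limma adjusted p = 0.0275) and Acad11 by 0.15 (SE 0.04, limma adjusted p = 0.0275). Pex13, Pex6 and Hadha fell by 0.14, 0.15 and 0.13, with limma adjusted p of 0.0214, 0.0430 and 0.0430. Pex6 and Hadha each lost the call in 23 of 36 fits that left out 1 array, and Pex13 in 0. Acox3 rose by 0.13 (SE 0.03, limma adjusted p = 0.0171). After centring, 7 fell and none rose, with Acox3 at 0.11 (adjusted p = 0.057), and 347 of 573 calls over all genes were increases. The count was 3 without HFC LWT female replicate 1 or HFnC LKO male replicate 3, 2 without HFnC LWT male replicate 3 and 9 without HFC LWT male replicate 1. It was 13 without HFC LWT male replicates 1 and 2, and 14 without the 4 arrays that stood apart. Of the cholangiocyte markers 5 of 6 and of the macrophage markers 5 of 9 rose, and their part in the result was not tested.

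The next comparison asked how the change from chow to the high-fat diet acted on these genes. In LWT livers limma called 0 of the 47, where 0.188% of all genes were called, and 8 had an unadjusted p under 0.05. Acsl4 came closest, at 0.58 (SE 0.15, adjusted p = 0.0837), and the differences ran from -0.31 to 0.58. In LKO livers 5 rose and none fell, where 1.8% of all genes rose and 3.24% fell. Pex6 ran from 9.20 to 9.54 on LFnC and from 9.61 to 9.91 on HFnC, with no overlap, and rose by 0.43 (SE 0.07, limma adjusted p = 0.00118), with 0.33, 0.48 and 0.48 in the 3 batches. It held in each fit that left out 1 array. Acadvl rose by 0.32 (SE 0.08, limma adjusted p = 0.0240), Pex14 by 0.28 (SE 0.07, limma adjusted p = 0.0187), Acad11 by 0.27 (SE 0.06, limma adjusted p = 0.0168) and Acads by 0.22 (SE 0.06, limma adjusted p = 0.0431).

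Those calls other than Pex6 depended on single arrays. The count in LKO was 1 without LFnC female replicate 1, HFnC female replicate 2 or HFnC female replicate 3, and 2 without HFnC male replicate 1 or LFnC male replicate 3. It was 3 without LFnC male replicate 2 or LFnC female replicate 3. With 2650 of all genes called, it was 13 (12 higher) without HFnC female replicate 1, which stood apart. It was 18 without the 4 arrays that stood apart and 2 in a fit of these groups alone. Centring gave 7 increases, and over all genes 757 of 1313 calls were then increases. In the pathway lists 4 of 12 mitochondrial genes rose, 3 of 22 peroxisomal genes rose and 1 fell, and 6 of 14 PPARalpha genes rose, among them Ppara (0.55, SE 0.12), Angptl4 (1.08, SE 0.20) and the fatty acid binding protein Fabp1 (0.46, SE 0.07). Of the 6 cholangiocyte markers 6 fell (median -1.20), and 3 of 9 macrophage and 3 of 9 matrix markers fell. Their part in the result was not tested.

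Whether LKO and LWT answered the high-fat diet differently was tested as an interaction. By limma none of the 47 was called, nor was any of all genes (0%), and 18 of the 47 had an unadjusted p under 0.05. Pex6 came closest (0.31, SE 0.10, adjusted p = 0.124). The median was 0.17 against 0.05 over all genes. Once HFnC LKO female replicate 1 was left out, 806 of all genes were called. Without HFnC LKO female replicate 1 the count was 4, all higher, and without the 4 arrays that stood apart it was 7, all higher. Those 4 include HFnC LWT male replicate 2, which was chosen by the PPARalpha list, so the count of 7 is no separate support.

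The addition of cholesterol to the high-fat diet was compared within each genotype. In LWT livers 2 of the 47 rose, near the 3.5% of all genes that did, and none fell, where 1.16% of all genes did. Acot6 rose by 0.37 (SE 0.10, limma adjusted p = 0.0280) and Acadm by 0.22 (SE 0.07, limma adjusted p = 0.0493), and with batch as a block Acadm had an adjusted p of 0.055. The count was 1 without HFnC female replicate 1, HFC male replicate 1, HFC male replicate 2 or HFC female replicate 3. It was 0 without HFnC male replicate 2, HFC female replicate 2, HFnC female replicate 3 or HFnC male replicate 3. With 2197 of all genes called, it was 5 without HFC male replicate 3. It was also 0 after centring, where 520 of 1157 calls over all genes were increases, without HFC male replicates 1 and 2, and without the 4 arrays that stood apart. Of the macrophage markers 6 of 9 rose, of the matrix markers 4 of 9 and of the T, B and NK cell markers 6 of 8, and their part in the result was not tested. Among the pathway genes Acaa1b (0.72, SE 0.19), Far1 (0.50, SE 0.13) and Cd36 (0.82, SE 0.18) rose.

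In LKO livers 1 gene fell and 1 rose with cholesterol, where 0.671% of all genes fell and 0.336% rose. Acsl4 ran from 11.36 to 12.09 (median 11.62) on HFnC and from 10.56 to 11.40 (median 11.00) on HFC, which overlap by little, and fell by 0.64 (SE 0.15, limma adjusted p = 0.0265). Its change was -0.84, -0.47 and -0.63 in the 3 batches. Pex13 ran from 9.86 to 10.23 on HFnC and from 10.20 to 10.35 on HFC and rose by 0.22 (SE 0.06, limma adjusted p = 0.0498). Acsm3 (0.51, adjusted p = 0.0516) and Acadsb (0.45, adjusted p = 0.0686) missed the threshold, and 22 of the 47 had an unadjusted p under 0.05. The count was 1 without HFnC female replicate 1, HFnC male replicate 1 or any of replicates 2 and 3 of the HFC groups. It was 0 without HFC female replicate 1, HFC male replicate 1, HFnC female replicate 2 or HFnC male replicate 3. It was 4 without HFnC male replicate 2 and 6 without HFnC female replicate 3, with 293 and 668 of all genes called. With batch as a block it was 4. Without the 4 arrays that stood apart it was 1. Centring gave 2 increases and 1 decrease, and over all genes 105 of 200 calls were then increases. Of 9 macrophage markers limma called 0 (median -0.42, 6 with an unadjusted p under 0.05), and of 6 cholangiocyte markers 0 (median -0.48, 4 with an unadjusted p under 0.05). The macrophage level ran from -0.32 to 0.91 on HFnC and from -0.32 to -0.19 on HFC, and the cholangiocyte level from -0.57 to 1.66 and from -0.52 to -0.41. Their part in the result was not tested.

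The interaction of genotype with cholesterol was called for 3 of the 47, all higher in LKO, where 1.2% of all genes were called higher and 4.58% lower. Acsm3 differed by 0.70 (SE 0.19, limma adjusted p = 0.0248), Acadsb by 0.62 (SE 0.17, limma adjusted p = 0.0296) and Acsm1 by 0.56 (SE 0.17, limma adjusted p = 0.0476). Acadsb read 10.69, 11.05 and 10.89 in HFC LKO females and 11.26, 11.38 and 11.35 in HFC LKO males, against 10.70, 10.61 and 10.72 in HFC LWT females and 10.55, 10.80 and 11.22 in HFC LWT males. The males of the 2 genotypes did not overlap, and the females did. Without HFC LWT male replicates 1 and 2 none of the 3 was called, at 0.54 (adjusted p = 0.25), 0.44 (adjusted p = 0.37) and 0.31 (adjusted p = 0.55). The count was also 0 without HFC LWT male replicate 1, HFnC LWT male replicate 3 or HFnC LKO male replicate 3, and without the 4 arrays that stood apart. It was 1 without HFnC LKO female replicate 1, HFnC LWT female replicate 3 or HFC LWT female replicate 3. It was 7 without HFnC LKO female replicate 3 and 13 without HFC LWT male replicate 3, with 2130 and 2746 of all genes called. Centring moved the median of all genes from 0.01 to 0.12 and gave 10 calls, all higher, with 1551 of all 2285 calls higher. Lower in the same interaction were 7 of 9 macrophage markers (median -1.13), 6 of 9 matrix markers (-1.06) and 6 of 8 lymphocyte markers (-0.72). Of 6 cholangiocyte markers limma called 0 (median -0.78, 4 with an unadjusted p under 0.05), and 1 of 9 hepatocyte markers was higher. Their part in the result was not tested.

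Females and males differed in a small group of these genes. In LWT 5 were higher and 2 lower in females, where 3.04% and 3.37% of all genes were. Acot4 ran from 11.31 to 12.28 (median 11.63) in the 9 LWT females and from 9.07 to 11.25 (median 10.34) in the 9 LWT males. No male reached a female, and the difference was 1.39 (SE 0.22, limma adjusted p = 0.000121), or 1.56, 1.51 and 1.10 in the 3 batches. Acot2 was higher by 0.70 (SE 0.19, limma adjusted p = 0.0187), with females from 11.15 to 12.37 and males from 9.62 to 11.91, and it lost its call without HFC LWT female replicate 1 (0.63, adjusted p = 0.053). Acot6 was higher by 0.47 (SE 0.08, limma adjusted p = 0.00045), Acot13, a small thioesterase of mitochondria and cytosol, by 0.29 (SE 0.06, limma adjusted p = 0.00468) and Hadh by 0.14 (SE 0.04, limma adjusted p = 0.0245). Acox3 was lower in females, with a difference of -0.20 (SE 0.04, limma adjusted p = 0.00228) as was Acsl4, at -0.42 (SE 0.12, limma adjusted p = 0.0357). Acsl4 was -0.26 (adjusted p = 0.26) without HFC LWT male replicates 1 and 2, and Hadh was 0.13 (adjusted p = 0.078) without them and had an adjusted p of 0.094 after centring. The count was 5 without those arrays and 7 without the 4 arrays that stood apart. Of the acinar markers 2 of 6 were higher in LWT females (median 2.38), whose part in the result was not tested.

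In LKO livers 2 were higher and 7 lower in females, where 2.53% and 2.99% of all genes were. Acot4 was again higher, by 1.21 (SE 0.22, limma adjusted p = 0.000776), with females from 10.13 to 11.76 and males from 9.16 to 10.44, and Acot2 by 0.68 (SE 0.19, limma adjusted p = 0.0251). Acox3 ran from 9.00 to 9.40 in females and from 9.48 to 9.70 in males without overlap, a difference of -0.38 (SE 0.04, limma adjusted p = 3.89e-07). Acadsb differed by -0.46 (SE 0.10, limma adjusted p = 0.00439), Pex11g by -0.34 (SE 0.09, limma adjusted p = 0.0143) and Acsm1 by -0.33 (SE 0.10, limma adjusted p = 0.0407). Pex16 (-0.24), Acads (-0.19) and Pex5 (-0.18) were also lower, and Pex16 had an adjusted p of 0.058 with batch as a block and 0.057 without the 4 arrays that stood apart. Of 18 fits that left out 1 array, Pex5 lost its call in 13, Acsm1 and Pex16 in 12, Acads in 6 and Acot2 in 5, whereas Acot4, Acox3, Acadsb and Pex11g lost it in 0. Acsm1 also missed the threshold after centring (adjusted p = 0.054). All 14 peroxins lay below 0, with a median of -0.07, and 11 of them were not called. They were read in the same mice, so their signs are not independent, and the share of all genes below 0 was not counted. The count was 4 without LFnC male replicate 1, HFnC female replicate 1 or HFnC male replicate 1, and 5 without HFC female replicate 1. It was 8 without the 4 arrays that stood apart. In the peroxisomal list Scp2 was lower in females of both genotypes (-0.76 in LWT, -0.70 in LKO) and Abcd2 higher (1.47 and 1.64).

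**Figure D5:**
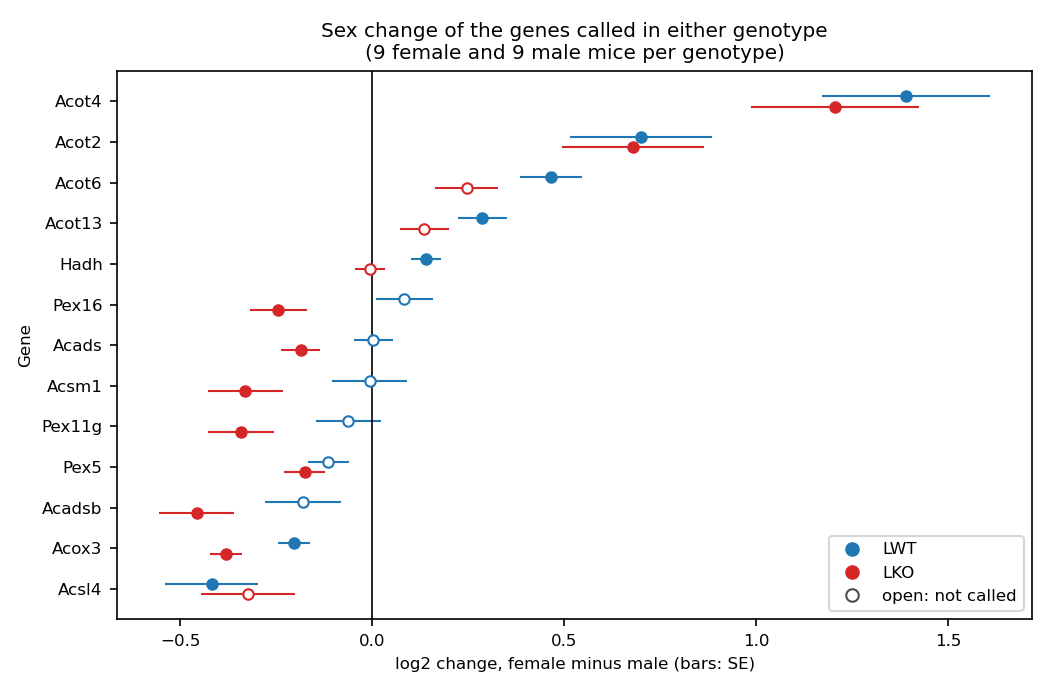
Log2 difference, female minus male (horizontal axis, bars are SE), in LWT and in LKO livers for the 13 genes called in either genotype, with 9 females and 9 males of each; open points are not called. Acot4 stands at 1.39 in LWT and 1.21 in LKO, and Acox3 at -0.20 and -0.38.

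The genotype change in females minus that in males was tested, and by limma none of the 47 was called, where 0.0712% of all genes were; 13 had an unadjusted p under 0.05. The closest was Pex16 (-0.33, SE 0.10, adjusted p = 0.266). Of the 47, 41 lay below 0, the 14 peroxins among them, and the median was -0.15 against -0.001 over all genes. These genes were read in the same mice, so their signs are not independent of one another. Neither the interaction of sex with fat nor that of sex with cholesterol was called for any of the 47 by limma, where 0% and 0.00509% of all genes were called, and 1 and 6 had an unadjusted p under 0.05. Over the 15 planned comparisons 12 of the 47 were called in none: Acad9, Acad10, Acad12, Acot5, Acot7, Acot11, Acox2, Acsl5, Acsm2, Acsm4, Acsm5 and Pex2. Acot11 nonetheless had the third largest range of group means among the 47, and Acot5 the smallest, 0.21.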

How the data were processed

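Per the submitters' processing notes the authors normalised the arrays by RMA, and the deposited table holds log2 values of 36 arrays, between 3.04 and 14.37. No source used here gives the version of RMA, the genome build of the probes, whether batches were adjusted for, or why 9856 of the 35556 rows hold no value. Of the 25700 rows with values, 20781 carried 1 symbol in the platform annotation, 235 several and 4684 were not listed. The row of highest mean was kept per gene (19664 genes, 565 with more than 1 row, none of them among the 47). Groups came from the labels, and the series' design text calls the 3 mice of a group biological replicates.

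A linear model with 12 group means (limma 3.58.1, R 4.3.3, 24 residual degrees of freedom) gave each contrast, with p adjusted by Benjamini-Hochberg over all 19664 genes and a threshold of 0.05. Genotype changes are LKO minus LWT averaged over sexes, and sex differences are female minus male averaged over diets. On simulated data with 19664 genes the genotype contrast on LFnC recovered 98 of 100 genes changed by 1 and 89 of 100 changed by 0.5 on the log2 scale, with 10 false calls. The simulated noise was normal, independent between genes and arrays, with 1 SD per gene, and no other genes were changed. In the real data 33.4% of genes were called in that contrast. The first component held 21% of the variance of the deviations from group means. The simulated rates therefore need not hold for these arrays.

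The labels give the replicate number as a batch. Deviations from the group means correlated on average by 0.02 within a batch and -0.01 across. Of the 198 pairs of arrays from 1 batch, 56 correlated above 0.1. Batch explained a share of 0.0968 of the first principal component of the deviations and 0.247 of the second. The batch was used as a block only as an alternative. Other alternatives were median centring, a filter on genes with a mean under 6, means over a gene's rows, a trended robust fit, a fit of the compared groups alone, each array left out, and HFC LWT male replicates 1 and 2 left out. Leaving out 4 arrays together and the difference between HFC and LFnC were added after seeing the data.

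The 47 genes and the lists were chosen with earlier results of these data known. Any of the 47 could be named. Values in every group are given for the 14 with the largest range of group means, and full statistics for up to 5 called in each direction with the largest change.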

Additional observations from a re-analysis of the deposited data

Results flagged for a closer look

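The genotype change of 3 genes differed between the high-fat diets with and without cholesterol by a test of the difference itself: 0.696 for Acsm3, 0.619 for Acadsb and 0.556 for Acsm1, each higher with cholesterol. Without HFC LWT male replicates 1 and 2, which leaves 1 mouse in that group, the 3 differences were smaller and kept their sign.

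Between HFC and LFnC the genotype change differed, by the test of the difference, for 30 genes. Without HFC LWT male replicates 1 and 2, 16 of the 30 were called: Acads, Acot1, Acot4, Acsl4, Acsl6, Acsm1, Acsm2, Hadha, Pex3, Pex5, Pex7, Pex10, Pex19 and Pex26 were not. Of 24 fits that left out 1 array, Acot1 lost its call in 16, Pex5 in 13, Hadha in 10 and Pex3 in 5. The thioesterases that were higher on HFC were Acot1 (1.203), Acot4 (1.192), Acot8 (0.564) and Acot12 (0.475), and those lower were Acot9 (-1.098) and Acot10 (-0.665). Among the dehydrogenases and hydroxyacyl-CoA enzymes the differences were 0.723 for Acadsb, 0.546 for Acadvl, 0.517 for Acad8, 0.44 for Acad11, 0.346 for Acads, 0.273 for Hadh and 0.235 for Hadha. Among synthetases and oxidases they were 0.74 for Acsm3, 0.619 for Acsm1, 0.319 for Acsm2, 0.303 for Acsl6, -0.789 for Acsl4 and -0.295 for Acox3. Peroxins differed by 0.742 (Pex11g), 0.641 (Pex26), 0.587 (Pex6), 0.57 (Pex16), 0.463 (Pex14), 0.418 (Pex7), 0.405 (Pex10), 0.34 (Pex3), 0.337 (Pex19), 0.324 (Pex13) and 0.248 (Pex5).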

How the results depend on the processing

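No called change turned its sign under the settings run. Called values ended in 6 of 94 cases by centring, 18 of 88 by fitting the compared groups alone, 21 of 48 without HFC LWT male replicates 1 and 2, and 19 of 64 without the 4 arrays that stood apart. With the replicate block the counts were 1 for cholesterol in LWT and 4 for cholesterol in LKO; elsewhere the block moved no count by over 1.5 times, and it ended 2 of 94 called values, Acadm for cholesterol in LWT and Pex16 for sex in LKO. Median centring gave 0 for cholesterol in LWT and 10 for genotype by cholesterol. The trended robust fit gave 1 for cholesterol in LKO. A fit of the compared groups alone gave 2 for fat in LKO, 0 for cholesterol in LWT, 0 for cholesterol in LKO, 4 for sex in LWT and 0 for genotype by cholesterol. Without HFC LWT male replicates 1 and 2 the counts were 13 over all diets, 0 for cholesterol in LWT, 0 for genotype by cholesterol and 16 for HFC against LFnC. Without the 4 arrays that stood apart they were 14 over all diets, 18 for fat in LKO, 0 for cholesterol in LWT, 1 for cholesterol in LKO, 7 for genotype by fat and 0 for genotype by cholesterol. Leaving out 1 array at a time gave 25 to 30 calls for genotype on LFnC, 0 to 0 on HFnC, 0 to 8 on HFC, 2 to 9 over all diets, 0 to 0 for fat in LWT, 1 to 13 for fat in LKO, 0 to 5 for cholesterol in LWT, 0 to 6 for cholesterol in LKO, 5 to 9 for sex in LWT, 4 to 10 for sex in LKO, 0 to 0 for genotype by sex, 0 to 4 for genotype by fat, 0 to 13 for genotype by cholesterol, 0 to 0 for sex by fat and by cholesterol, and 26 to 33 for HFC against LFnC. The filter on dim genes ended none of the 93 named calls it could test. It removed Acsm2, so the call of that gene between HFC and LFnC was not tested there. None of the genes followed here had more than 1 row, so the mean of rows left their values unchanged. It could move their calls only through the other genes in the fit, and it ended none, which says little of their stability. Where leaving out arrays raised a count by over 1.5 times, more of all genes were called as well. The cause of these shifts was not tested.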
